A study of Homo sapiens with 6 samples.

Results

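The genes described here are 10 members of the unfolded protein response and the integrated stress response: EIF2AK3, ERN1, ATF6, XBP1, ATF4, DDIT3, TRIB3, ASNS, CHAC1 and SESN2. They were taken by symbol from a deposited table of 60612 genes, each symbol matched 1 row, and 9 of the 10 passed the filter on low values used for testing. The cells were ARPE-19, an established human line derived from the retinal pigment epithelium. They had been transfected with miR-204-5p (3 libraries) or with the control labelled miR-NC (3 libraries), and the submitters call the replicates biological. The series asked which transcripts miR-204-5p may target, with oxidative stress in myopia as its setting. Both groups were transfected. The sources used here give neither the dose of the miRNA nor the time from transfection to harvest.

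Proteins that fail to fold in the endoplasmic reticulum (ER) are sensed by 3 ER membrane proteins. PERK, encoded by EIF2AK3, phosphorylates the translation factor eIF2, which lowers protein synthesis overall while favouring translation of the transcription factor ATF4. IRE1, encoded by ERN1, splices the XBP1 mRNA so that it encodes an active transcription factor, and ATF6 is cut in the Golgi to release one. Lack of amino acids, viral RNA and lack of haem reach eIF2 through other kinases, and this shared route to ATF4 is the integrated stress response. The retinal pigment epithelium carries a heavy secretory and phagocytic load and is exposed to light and oxygen, and both responses have been studied there. Gene-level abundance of mRNA reads none of the steps made by phosphorylation, cleavage, translation or XBP1 splicing.

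miR-204-5p pairs with its targets mainly through its seed, bases 2 to 8, and those bases are in capitals in the mature sequences below. They show that miR-211-5p, its close relative, has the same seed, so the sites described next cannot be told apart between the pair. The sequences are from RefSeq on GRCh38.p14, and miR-204-5p lies at chr9:70810031-70810052 on the minus strand.
hsa-miR-204-5p: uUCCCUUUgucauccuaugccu
hsa-miR-211-5p: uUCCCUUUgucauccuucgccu

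Seed matches in the members' 3' UTRs, taking for each gene the longest one annotated, are shown because they mark the members that miR-204-5p could pair with directly. An 8mer (AAAGGGAA) matches the seed and has an A opposite base 1, a 7mer-m8 (AAAGGGA) matches the seed alone, and a 7mer-A1 (AAGGGAA) and a 6mer (AAGGGA) match bases 2 to 7 with and without that A. The PERK gene EIF2AK3 held 1 8mer at chr2:88557108-88557115 on the minus strand. ATF6 held 1 8mer at chr1:161960383-161960390 and 1 7mer-A1 at chr1:161959331-161959337, both on the plus strand. TRIB3 held 1 7mer-m8 at chr20:397137-397143 on the plus strand and 1 6mer. EDEM1, a gene of ER-associated degradation outside the 10 that is described further on, held 2 7mer-m8 matches on the plus strand, the first of them at chr3:5217498-5217504. The matched bases are in capitals, from GENCODE release 29 (GRCh38).
EIF2AK3 8mer: tacctccaatAAAGGGAAaatgaagctt
ATF6 8mer: tccttacaagAAAGGGAAcgagaaattg
ATF6 7mer-A1: atagaagggtAAGGGAAgggccagtgg
TRIB3 7mer-m8: cttttcagagAAAGGGAggtatccctg
EDEM1 7mer-m8: tttttagtcaAAAGGGAgaaatcttat

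ERN1 and SESN2 had a 6mer only, and ATF4, DDIT3, XBP1, ASNS and CHAC1 had no match. Among 10835 tested genes with a 3' UTR in the annotation, 8.65% had an 8mer and 39.8% had a match of any class. The 3' UTRs of the members ran from 83 bases in ATF4 to 5416 in ATF6, and longer sequences hold more matches by length alone. A match describes sequence and does not show pairing in these cells.

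The libraries held the equivalent of about 19100000 to 23300000 read pairs by a rough estimate. The third miR-204-5p library stood apart in RNA without poly(A) tails: RN7SK was at 361 FPKM there and at 5.24 to 14.5 in the other 5, and protein-coding genes made up 78.7% of its summed FPKM against 87.2% to 89.3%. RN7SK itself made up 0.0982% of the summed FPKM of that library, and its sum was the highest of all, at 367131 against 311623 to 341620. After rescaling to protein-coding genes no member was called either. Libraries also differed by transcript length: genes with a longest transcript over 6000 bases had median deviations of 0.20, 0.19 and 0.19 on the log2 scale in both libraries numbered 2 and the first miR-NC library, and of -0.09 to -0.21 in the others. Of 14 pigment epithelium markers 7 were tested, and FPKM summed over all 14 was 343 to 433 with miR-204-5p and 355 to 399 with miR-NC. RPE65, TTR, TYR and DCT, which mark differentiated cells of that tissue, were under 0.05 FPKM in every library. Of 9 fibroblast and mesenchymal markers 6 were tested, with sums over all 9 of 1543 to 1725 and 1453 to 1515. Of 12 endothelial, immune, glial and neuronal markers 2 were tested, with sums over all 12 of 75.6 to 88.9 and 45.1 to 79.8. VWF, RBFOX3 and CRX of the last list were under 0.05 FPKM in every library. The part of these differences in the members' values was not tested.

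None of the 9 tested members passed the test between the groups. The test was limma with an intensity trend on log2(FPKM + 1), two-sided, with Benjamini-Hochberg adjustment over 13151 genes and a threshold of 0.05. FPKM corrects the fragments of a gene for its length and for the size of the library, and a log2 fold change is the miR-204-5p mean less the miR-NC mean of log2(FPKM + 1), a scale that compresses differences at low levels. Of all 13151 genes 0 were called (0.0%), so a count of 0 among the members is also the background. At an unadjusted p under 0.05 there were 0 of the 9 members, beside 273 of the 13151 genes (2.08%). The members' log2 fold changes were positive for 6 and negative for 3, with a median of 0.10 beside -0.02 over all genes tested. In the authors' deposited table all 10 members had a q-value of 1, with p-values from 0.333 for TRIB3 to 0.915 for ASNS. In bulk RNA, fewer cells of a type and less RNA per cell cannot be told apart.

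**Figure D1:**
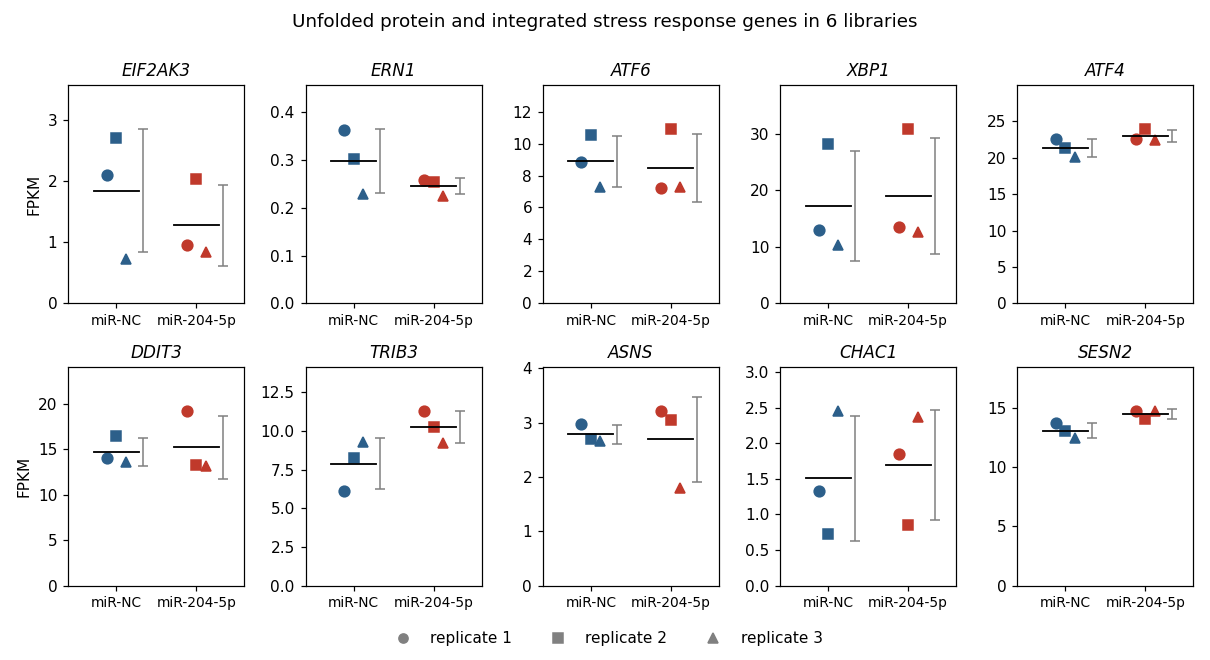
FPKM of the 10 members in each of the 6 libraries, on linear axes that start at 0, with a point per library, a bar at the mean of each group of 3 and a grey bar for the SD. The groups overlap for 9 members, and SESN2 is the one whose 3 miR-204-5p values all lie above the 3 miR-NC values.

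The ER sensors were expressed at different levels and overlapped between the groups. ATF6 was at 7.21, 10.9 and 7.30 FPKM in the miR-204-5p libraries numbered 1, 2 and 3 and at 8.83, 10.5 and 7.29 in the miR-NC libraries. The highest value of each group came from its library numbered 2, and the means were 8.48 ± 2.12 and 8.88 ± 1.61 FPKM (SD, n = 3 each). The log2 fold change was -0.07 (standard error 0.22, 95% limits -0.59 and 0.45), so the fit settles neither the direction nor the size of a change of ATF6 within those limits.

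EIF2AK3, the PERK gene, lay far lower. It was at 0.962, 2.04 and 0.837 FPKM in the miR-204-5p libraries and at 2.10, 2.71 and 0.731 in the miR-NC libraries. The lowest value of all came from a control library, and so did the highest, so the miR-204-5p values lay inside the control range. Means were 1.28 ± 0.659 and 1.85 ± 1.01 FPKM (SD, n = 3 each). The log2 fold change of -0.29 had limits of -1.08 and 0.50. EIF2AK3 is 1 of the 2 members with an 8mer match. With a single library left out its log2 fold change ran from -0.61 to -0.06, the latter without the second miR-NC library.

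ERN1, the IRE1 gene, was the lowest member and did not reach 0.5 FPKM in 3 libraries, so it was not tested in the main analysis. Its values were 0.258, 0.253 and 0.225 FPKM with miR-204-5p and 0.363, 0.302 and 0.228 with miR-NC. The groups overlapped through the third control library. Roughly 33.8 to 63.7 read pairs per library stood behind these values, by an estimate of depth that is itself rough. Without the filter limma gave a log2 fold change of -0.06 with limits of -0.22 and 0.11, on a scale where so low a gene can move little.

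XBP1, the transcription factor made by IRE1 splicing, varied more between libraries than between groups. It was at 13.5, 30.9 and 12.6 FPKM in the miR-204-5p libraries and at 12.9, 28.3 and 10.3 in the miR-NC libraries. In both groups the library numbered 2 was far above the other two, while those other 4 libraries lay between 10.3 and 13.5. The means were 19.0 ± 10.3 and 17.2 ± 9.70 FPKM (SD, n = 3 each), and the log2 fold change was 0.15 with limits of -0.93 and 1.23. Without the libraries numbered 2 it was 0.16, and with a single library left out it ran from -0.24 to 0.56. The spread within groups was 0.70 on the log2 scale, larger than that of 93.9% of the genes tested.

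ATF4, the shared effector, was among the steadiest transcripts measured. Its values were 22.6, 24.0 and 22.4 FPKM with miR-204-5p and 22.5, 21.4 and 20.1 with miR-NC. The groups overlapped by a narrow margin, and the highest library was 1.19 times the lowest. The spread within groups of 0.07 on the log2 scale was larger than that of only 1.80% of the genes tested. The log2 fold change was 0.10 with 95% limits of -0.23 and 0.44, so the fit settles neither the direction nor the size of a change of ATF4 mRNA within those limits. The row is for mRNA abundance, whereas ATF4 is known to be set largely by translation. The processed pseudogene ATF4P3 was listed at 1.01 to 1.85 FPKM, and some reads may be shared with it.

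DDIT3 encodes CHOP, a factor tied to death under lasting ER stress. It was at 19.2, 13.2 and 13.2 FPKM with miR-204-5p and at 14.0, 16.4 and 13.6 with miR-NC. Apart from the first miR-204-5p library, all values lay between 13.2 and 16.4. The log2 fold change was 0.03 with limits of -0.43 and 0.50.

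**Figure D2:**
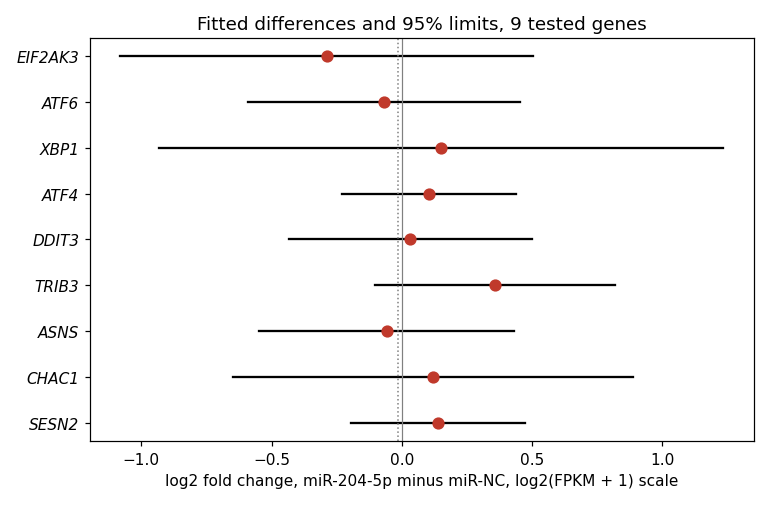
Log2 fold change of the 9 tested members, miR-204-5p minus miR-NC on log2(FPKM + 1), with 95% limits from limma (n = 3 libraries per group). Every interval includes 0, the widest being that of XBP1 (-0.93 to 1.23) and among the narrowest those of ATF4 and SESN2.

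Of the downstream genes, TRIB3 had the largest log2 fold change of the 9. It encodes a pseudokinase that is induced by ATF4 and CHOP and dampens ATF4 activity. Its values were 11.3, 10.3 and 9.24 FPKM with miR-204-5p and 6.09, 8.23 and 9.30 with miR-NC. One pair crossed, the lowest miR-204-5p library at 9.24 and the highest control at 9.30. Means of 10.3 ± 1.03 and 7.87 ± 1.64 FPKM (SD, n = 3 each) gave a log2 fold change of 0.36 with limits of -0.10 and 0.82. The unadjusted limma p was 0.109, and the Benjamini-Hochberg adjusted p was 1.00. With a single library left out the log2 fold change of TRIB3 ran from 0.21 to 0.47. TRIB3 is the member with a 7mer-m8 match, and its mean was higher with miR-204-5p. When FPKM was rescaled to protein-coding genes the crossing ended and the groups of TRIB3 stood apart. At that setting 2 members had groups apart, beside 805 of the 13151 genes in either direction. After median-of-ratios scaling or quantile normalization 1 member did, beside 830 and 882 of the 13151 genes. Without rescaling it was also 1 member, beside 782 genes.

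SESN2, which encodes sestrin 2, an ATF4 and p53 target that restrains growth signalling and counters oxidative stress, was the only member whose groups did not overlap. Its values were 14.7, 14.0 and 14.7 FPKM with miR-204-5p and 13.7, 13.0 and 12.4 with miR-NC. The lowest miR-204-5p library exceeded the highest control, and 1 of the 9 tested members was so ordered, beside 496 of the 13151 genes (3.77%). No member stood apart in the other direction, beside 286 genes (2.17%). SESN2 had the least spread of the members, 0.05 on the log2 scale, larger than that of 0.989% of the genes. The difference was small as well, with means of 14.5 ± 0.409 and 13.1 ± 0.658 FPKM (SD, n = 3 each), a ratio of 1.10 and a log2 fold change of 0.14 (limits -0.20 and 0.47). Limma, which draws each gene's spread towards that of genes of similar level, gave it an unadjusted p of 0.358.

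ASNS, asparagine synthetase, a classic ATF4 target under lack of amino acids, showed no separation. It was at 3.22, 3.05 and 1.80 FPKM with miR-204-5p and at 2.98, 2.70 and 2.67 with miR-NC. The control values sat inside the range of the miR-204-5p values, and the log2 fold change was -0.06 with limits of -0.55 and 0.43. The third miR-204-5p library gave the low value, and without it the log2 fold change was 0.13.

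CHAC1, which encodes an enzyme that breaks down glutathione and is induced through ATF4 and CHOP, varied 3.37-fold between libraries. Its values were 1.85, 0.853 and 2.37 FPKM with miR-204-5p and 1.33, 0.728 and 2.46 with miR-NC. In both groups the library numbered 2 was the lowest, the reverse of XBP1. The log2 fold change was 0.12 with limits of -0.65 and 0.89, and about 26.5 to 79.9 read pairs per library stood behind the values.

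XBP1 and ATF6 were highest of all 6 libraries in both libraries numbered 2, and CHAC1 was lowest there. These are 2 of 9 members (22.2%) highest and 1 of 9 (11.1%) lowest, near the 18.6% and 13.2% of all genes tested. XBP1 in that library was 2.29 times the highest other library of its own group with miR-204-5p and 2.19 times with miR-NC. Across both groups the lower of the pair was 2.09 times the highest of the other 4 libraries, and 25 of the 13151 genes (0.190%) had a ratio as large. The corresponding ratios within groups were 2.11 and 1.29 for EIF2AK3 and 0.359 and 0.296 for CHAC1. EIF2AK3 was not confined to that pattern, because the first control library was also high. This ordering was noticed in the data, so it is a description without a test.

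**Figure D3:**
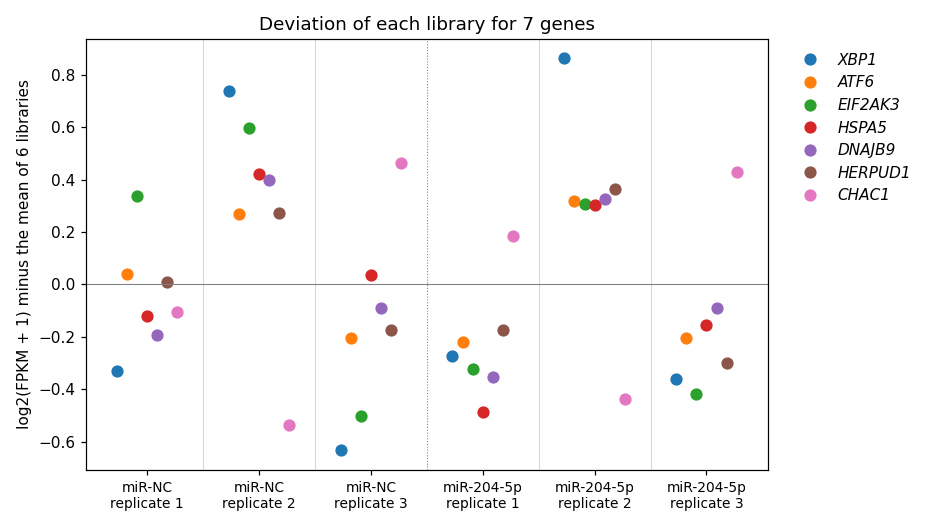
Deviation of XBP1, ATF6, EIF2AK3, CHAC1 and the ER genes HSPA5, DNAJB9 and HERPUD1 from their mean over the 6 libraries, in log2(FPKM + 1), with a point per gene and library. In the libraries numbered 2 XBP1 lies at 0.86 (miR-204-5p) and 0.74 (miR-NC) and CHAC1 at -0.44 and -0.54, while the other 5 genes lie above 0 there.

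Some genes known to act with XBP1 and ATF6 were also highest in the libraries numbered 2, and the counts over whole lists follow after 3 examples. HSPA5, which encodes the chief ER chaperone BiP, was at 203, 352 and 256 FPKM with miR-204-5p and at 262, 382 and 292 with miR-NC. The library numbered 2 was the highest of each group by 1.38 and 1.31 times. DNAJB9, an ER cochaperone and a target of spliced XBP1, was at 3.22, 5.75 and 4.06 FPKM with miR-204-5p and at 3.72, 6.11 and 4.07 with miR-NC. It too was highest in those libraries. HERPUD1, an adaptor of ER-associated degradation, was at 10.3, 15.4 and 9.39 FPKM and at 11.9, 14.5 and 10.3 in the same order of groups. None of them passed the test between transfections, with log2 fold changes of -0.23, -0.08 and -0.07. HSP90B1, the ER chaperone GRP94, had one of -0.22.

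Both libraries numbered 2 held the highest values of all 6 for 10 of 17 tested genes (58.8%) of the XBP1 branch, counted without XBP1, which covers protein entry into the ER, export and cochaperones. Among the 10 were the translocation genes SEC62, SEC63 and TRAM1, the coat gene SEC31A and the cochaperones DNAJB9 and DNAJC3. SEC31A, for example, was at 5.48, 11.7 and 5.00 FPKM with miR-204-5p and at 8.73, 11.8 and 6.53 with miR-NC. For ER chaperones and folding enzymes of the ATF6 branch this was so for 8 of 20, among them HSPA5, HSP90B1, PDIA4 and HYOU1, and for ER-associated degradation for 4 of 17 (23.5%). The share over all genes tested was 18.6%. It moved with transcript length, from 7.81% of genes whose longest transcript is under 1000 bases to 33.5% of those over 6000 bases. XBP1, with a longest transcript of 2173 bases, falls in a class where the share was 11.6%, and CHAC1, at 1560 bases, in the same class, where 19.8% of genes were lowest in both. ATF6, at 7496 bases, falls in the class over 6000 bases, where the share was 33.5%. SEC62 and SEC63, at 6568 and 6411 bases, fall in that class too. HSPA5, HSP90B1, HYOU1, DNAJC3, SEC31A and TRAM1, at 3032 to 5591 bases, fall in the class just below it, where the share was 23.2%. DNAJB9 and PDIA4, at 2715 and 2903 bases, fall in the class of XBP1. Both libraries numbered 2 were highest for 1 of 13 (7.69%) transfer RNA charging enzymes controlled by ATF4, the lowest share of the lists. They were highest for 3 of 18 genes of amino acid supply and 1 of 5 for growth control and secreted signals. Counts were 1 of 8 for the listed partners of ATF4 and 3 of 19 for eIF2 kinases, eIF2 and its regulators. For ER stress and cell death the count was 2 of 12. The part of transcript length in these shares was not tested.

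XBP1 and BiP are textbook carriers of the ER stress response element, so the promoters are shown beside those levels. The element was searched as CCAAT, 9 further bases and CCACG on both strands, from 250 bases before to 50 after each gene's start in RefSeq (GRCh38.p14). It was found in 25 of 27305 genes (0.0916%). XBP1 was the only member with it, and it was found in 7 of 19 genes of the ATF6 branch with a promoter in the table, among them HSPA5 and HSP90B1. HERPUD1 holds the second form, ATTGG, 1 further base and CCACG, found in 19 genes (0.0696%). Each window below has the match in capitals with 20 bases on each side. XBP1 lies at chr22:28800583-28800641 on the minus strand, HSPA5 at chr9:125241371-125241429 on the minus strand, and HERPUD1 at chr16:56932005-56932055 on the plus strand.
XBP1: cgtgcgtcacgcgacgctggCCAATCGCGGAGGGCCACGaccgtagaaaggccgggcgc
HSPA5: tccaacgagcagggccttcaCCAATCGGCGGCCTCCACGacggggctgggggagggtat
HERPUD1: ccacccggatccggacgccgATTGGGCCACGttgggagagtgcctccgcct

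The core of the element bound by ATF4 with a C/EBP partner, TGATGNAA on either strand, was found in 1217 of the 27305 genes (4.46%). Among the members it occurred in ASNS and CHAC1. It was also found in 7 of 11 transfer RNA charging genes with a promoter in the table. ASNS lies at chr7:97872449-97872496 on the minus strand and CHAC1 at chr15:40953242-40953289 on the plus strand, where the match reads on the opposite strand. No match in the other members says only that these letters are not in these windows.
ASNS: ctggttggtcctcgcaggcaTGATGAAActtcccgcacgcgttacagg
CHAC1: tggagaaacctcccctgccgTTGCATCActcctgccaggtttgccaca

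The genes around the members were read from 9 lists holding 136 further genes, of which 128 were tested. None was called, 3 had an unadjusted p under 0.05 (2.34%), and the median log2 fold change was -0.05. Groups stood apart for 5 genes higher (3.91%), BATF3, CEBPG, PCK2, SLC1A5 and CARS1, and for 2 lower (1.56%), YARS1 and EDEM1. Those shares are close to the 3.77% and 2.17% over all genes. The genes with the small p were BATF3, GPT2 and EDEM1, and in the authors' deposited table every listed gene had a q-value of 1.

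**Figure D4:**
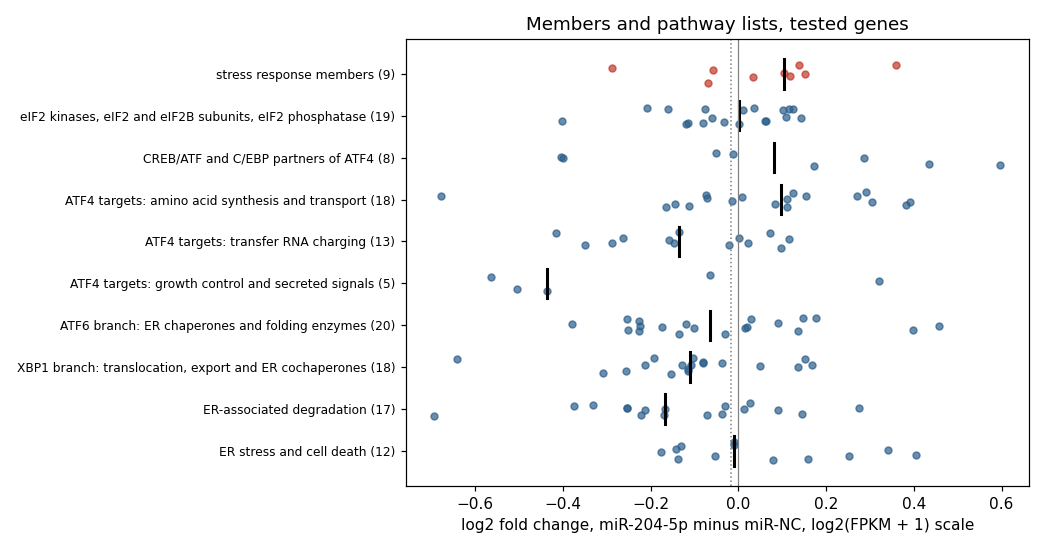
Log2 fold change, miR-204-5p minus miR-NC on log2(FPKM + 1), of each tested gene of the pathway lists, with a point per gene, a bar at each list's median and the members in red. The medians of the pathway lists lie between -0.44 (growth control and secreted signals, 5 genes) and 0.10 (amino acid synthesis and transport, 18 genes), and no gene passed the test.

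Upstream of ATF4, the 19 tested genes for eIF2 kinases, eIF2, its exchange factor and its phosphatase had a median of 0.00, with 10 positive and 9 negative. EIF2AK4, the kinase GCN2 that senses uncharged transfer RNA, was at 2.32, 4.16 and 2.13 FPKM with miR-204-5p and at 4.06, 4.49 and 1.97 with miR-NC, a log2 fold change of -0.21. Its high values came from both libraries numbered 2 and the first control, as for EIF2AK3. EIF2AK3 and EIF2AK4, with longest transcripts of 4646 and 5499 bases, fall in the length class just below the one over 6000 bases. Over the 4841 genes of that class, the median log2 deviations in those libraries were 0.13, 0.11 and 0.14. In the others they were -0.03 to -0.16. The part of transcript length in the values of these kinases was not tested. EIF2S1, the phosphorylated subunit, had a log2 fold change of 0.01, and PPP1R15A, the stress-induced phosphatase subunit GADD34, one of 0.11. PPP1R15A was lowest in both libraries numbered 3, at 25.8 and 24.0 FPKM, against 37.2 to 44.0 in the others. The smallest unadjusted p in each direction of this list belonged to EIF2B3, an exchange factor subunit (log2 fold change 0.14), and IMPACT, an inhibitor of GCN2 (-0.40).

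Among the listed partners of ATF4, 4 of 8 tested genes were positive and 4 negative. BATF3 was at 0.969, 0.965 and 1.54 FPKM with miR-204-5p and at 0.592, 0.444 and 0.733 with miR-NC. Its groups did not overlap, and the log2 fold change was 0.43 (limma unadjusted p 0.0312, adjusted p 1.00 by Benjamini-Hochberg). ATF3, a stress-induced repressor, was at 5.09, 7.10 and 0.191 FPKM and at 8.79, 5.49 and 1.13, so both libraries numbered 3 were low and the limits of its log2 fold change of -0.40 ran from -2.38 to 1.58. CREBZF had the smallest p among the negative genes, with -0.40.

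ATF4 targets for amino acid supply had 11 positive and 7 negative log2 fold changes among 18 tested genes, with a median of 0.10. GPT2, a mitochondrial alanine transaminase, was at 2.28, 2.86 and 2.37 FPKM with miR-204-5p and at 6.76, 5.07 and 2.71 with miR-NC. The groups overlapped through the third control library, and the log2 fold change was -0.68 with an adjusted limma p of 1.00. PSAT1 and PHGDH of serine synthesis stood at -0.01 and 0.12, and the transporters SLC7A11 and SLC7A5 at 0.15 and -0.07. The cystine transporter SLC7A11 feeds glutathione synthesis, the pathway that CHAC1 opposes. The glutamine transporter SLC1A5 had 0.29, with means of 3.12 ± 0.148 and 2.37 ± 0.328 FPKM (SD, n = 3 each). The 13 transfer RNA charging enzymes had a median of -0.14, with 5 positive and 8 negative, SARS1 at 0.12 and YARS1 at -0.29 having the smallest p. Of 5 tested genes for growth control and secreted signals 4 were negative. Among them DDIT4, an inhibitor of mTORC1, was at 37.1, 39.9 and 66.8 FPKM with miR-204-5p and at 57.7, 54.1 and 92.1 with miR-NC, highest in both libraries numbered 3. EIF4EBP1, a repressor of cap-dependent translation, was the positive one at 0.32.

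On the ER side, the 20 chaperones and folding enzymes had 9 positive and 11 negative values with a median of -0.07, and the 18 tested XBP1-branch genes, XBP1 included, had 4 positive and 14 negative with a median of -0.11. The 17 tested genes of ER-associated degradation had 5 positive and 12 negative and a median of -0.17. EDEM1, which hands misfolded glycoproteins to degradation and is a target of spliced XBP1, had the lowest unadjusted p of that list. It was at 4.38, 5.74 and 3.53 FPKM with miR-204-5p and at 8.47, 9.55 and 5.94 with miR-NC. Every miR-204-5p value lay below every control value. Means of 4.55 ± 1.11 and 7.99 ± 1.85 FPKM (SD, n = 3 each) gave a log2 fold change of -0.69 with limits of -1.25 and -0.13, an unadjusted limma p of 0.0221 and a Benjamini-Hochberg adjusted p of 1.00. EDEM1 carries the 7mer-m8 matches shown above, in a 3' UTR of 4039 bases, and 18.7% of tested genes have an 8mer or 7mer-m8. The 12 tested genes of ER stress and cell death had 5 positive and 7 negative values and a median of -0.01. The genes with the smallest p in each direction were SDF2L1 (0.46) and PDIA3 (-0.25) among chaperones and folding enzymes, KDELR2 (0.17) and SEC24D (-0.64) in the XBP1 branch, DERL2 (0.28) beside EDEM1, and BBC3 (0.34) and SESN3 (-0.14) in the death list, and none passed the test.

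The genes whose levels most resembled XBP1 over the 6 libraries, after the group means were taken out, were LIN52, CDKN1B and TPD52L1, each with a Pearson r of 0.997 or 0.998. CDKN1B, for example, was at 7.17, 11.5 and 6.65 FPKM with miR-204-5p and at 7.64, 12.8 and 6.54 with miR-NC, so that it too stood out in the libraries numbered 2. For TRIB3 the 3 genes were AC004816, JUND and PRF1, with r of 0.996, 0.990 and 0.987. JUND was at 122, 116 and 109 FPKM with miR-204-5p and at 89.7, 106 and 119 with miR-NC. With 6 libraries, and with the genes picked as the highest among all those tested, the coefficients are descriptions.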

How the data were processed

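Poly(A) RNA from 6 ARPE-19 cultures was sequenced as paired ends from strand-marked libraries, per the labels' protocols. The authors deposited FPKM per gene and library, with 0.0001 in the place of 0, and it was read as 0. The submitters' processing notes name DESeq2, edgeR, StringTie 1.3.4d, HISAT2 2.0.4, cutadapt 1.9 and the build GRCh38, without saying what each did. For each gene the deposited table also gave the authors' q-value, p-value, fold ratio and its log2, made with a tool that the sources used here do not name.

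Genes that reached 0.5 FPKM in 3 or more libraries (13151 of 60612) were tested with limma 3.58.1 (R 4.3.3) on log2(FPKM + 1) with an intensity trend and no covariate. P-values were adjusted by the Benjamini-Hochberg method. Read pairs were estimated from the step of FPKM times length and are rough. Seed matches were searched in GENCODE release 29, and miRNAs and promoters were taken from RefSeq, with Python 3.11.15, numpy 2.4.6 and pandas 2.3.3.

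The members, the pathway lists and the tests were chosen with earlier results of these data known. Named genes are the members, 14 pathway genes taken whatever they showed, the gene of each list with the smallest unadjusted p in each direction and the 3 genes most like XBP1 and TRIB3, besides RN7SK. Other genes were named after their values were seen. Alternatives were another pseudocount, no filter, 3 scalings, no trend, library weights, a replicate block and each library left out.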

Additional observations from a re-analysis of the deposited data

How the results depend on the processing

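No member and no listed gene was called under any alternative, and leaving out 1 library at a time gave 0 to 3 called genes of the whole table, the 3 without miR-204-5p replicate 2. Without both libraries numbered 2, an alternative chosen after seeing the data, 1 gene was called. Genes with an unadjusted p under 0.05 numbered 273, but 731 without the filter, 4617 with library weights, 941 with the replicate block and 163 to 753 with 1 library left out (lowest without miR-204-5p replicate 1, highest without miR-204-5p replicate 2). With library weights 2 of the 9 tested members had such a p, beside the 4617 of 13151 genes. They were TRIB3 (0.00546, adjusted by limma and Benjamini-Hochberg 0.0764) and EIF2AK3 (0.00845, adjusted 0.0792). The weight was 5.04 for miR-204-5p replicate 1 and 0.282 to 2.12 for the other libraries. Genes whose groups did not overlap numbered 782, or 1647 without the filter and 805 after rescaling to protein-coding genes. The members among them numbered 1, or 2 after that rescaling. Library weights turned XBP1 to -0.26, ASNS to 0.064 and EIF2S1 to -0.0029, quantile normalization turned EIF2S1 to -0.024, and median-of-ratios scaling turned PSAT1 to 0.0029. With 1 library left out, log2 fold changes ran from -0.24 to 0.56 for XBP1, -0.14 to 0.12 for DDIT3, -0.25 to 0.047 for ATF6, -0.17 to 0.13 for ASNS, -0.12 to 0.38 for CHAC1, -0.42 to 0.0034 for HSP90B1, -0.26 to 0.10 for DNAJB9, -0.27 to 0.058 for HERPUD1, -1.04 to 0.45 for ATF3, -0.12 to 0.34 for PPP1R15A, -0.27 to 0.17 for PSAT1, -0.21 to 0.12 for SLC7A5 and -0.038 to 0.063 for EIF2S1. Without a change of sign, HSPA5 ran from -0.43 to -0.039, EIF2AK3 from -0.61 to -0.062, EIF2AK4 from -0.48 to -0.040, IMPACT from -0.90 to -0.039 and EIF4EBP1 from 0.11 to 0.66. In all, 12 of 135 member values and 18 of 450 values of other named genes turned sign, none gained a call, and the causes were not tested. Same-numbered libraries correlated at 0.04, 0.55 and 0.52 in their deviations from the group means, and differently numbered ones at -0.61 to 0.32. The libraries numbered 2 and those numbered 3 were thus the most alike across groups, unlike those numbered 1. The labels do not explain the numbers, and the main test did not pair the libraries by them. Depth limits low genes such as ERN1 and CHAC1, at roughly 26.5 to 79.9 read pairs per library.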
